A study of Mus musculus with 7 samples.

Results

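The members described here are 10 genes of the tumour necrosis factor (TNF) superfamily, taken by name from the 20343 genes of the count table. Of them, 7 are receptors (Tnfrsf1a, Tnfrsf1b, Ltbr, Cd40, Tnfrsf14, Tnfrsf9 and Tnfrsf25) and 3 are ligands (Tnfsf4, Tnfsf8 and Tnfsf10). They were picked by name as mouse counterparts of signals used in CD4+ T cell help and lymphotoxin signalling, without reference to a threshold. RNA was sequenced from the apical myocardium of 7 NSG-DR1 mice (strain label NSG-DRB1*0101), an immunodeficient line with a human HLA-DR1 transgene. Host T, B and NK cells do not develop in NSG mice, while cardiac and myeloid cells are their own, and this held for both groups. The 4 control mice were untreated. The 3 transferred mice were given human CD4+ T cells, and their hearts were collected 6 weeks later. Age and sex of the mice are not given in the sources used here, nor is it stated whether transferred mice shared a T cell donor.

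TNF superfamily ligands are mostly trimeric, membrane-bound or shed proteins that cluster receptors on a neighbouring cell. Receptors with a death domain can couple to caspases, and the others recruit TRAF adaptors that activate NF-kappa B. Activated CD4+ T cells carry CD40 ligand, lymphotoxin, LIGHT and TNF, and their receptors sit on macrophages, dendritic cells, endothelium and stroma. Ligand transcripts made by the human cells are not measured by mouse genes and are not analysed here. Neither are the mouse genes Tnf, Lta, Ltb, Cd40lg and Tnfsf14, since the table analysed ends within chromosome 8.

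Over that part of the genome the libraries held 16402194 to 25190580 counts, and 3 counts corresponded to 0.115 to 0.189 counts-per-million (CPM, scaled by TMM). Cardiomyocyte markers summed to between 85115 and 114365 CPM in the 7 hearts, led by Actc1 and Tnnt2, as the tissue label states. The summed level of 4 neutrophil markers, led by S100a9 and S100a8, was 7.60 to 11.0 CPM in control hearts, and 11.1, 249 and 34.8 CPM in transferred hearts 1, 2 and 3, so transferred heart 2 stood apart.

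The clearest difference among the members was in Tnfrsf1b, the TNF receptor without a death domain that is found mainly on leukocytes and endothelium. Its level was higher in all 3 transferred hearts than in any control heart, by 1.77-fold, but with an adjusted p-value just above the 0.05 threshold. Tnfrsf1a, the broadly expressed death domain receptor for TNF, was also without overlap, by 1.21-fold. Ltbr, the lymphotoxin beta receptor, had means of 80.1 and 80.4 CPM. The T cell costimulatory genes Tnfrsf9, Tnfsf4 and Tnfsf8 were at or near 0 counts.

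Sequence upstream of a start site is where NF-kappa B, interferon and STAT proteins can bind, and 8 of the 10 members matched the RefSeq promoter table (GRCm38.p6). The 250 bases before the start are printed for the 2 members whose groups did not overlap, for Ltbr as the well-expressed receptor with equal means, and for Tnfsf10 as the only ligand above the filter. Capitals mark matches to GGGNNNNNCC (a kappa B core), GAAANNGAAA (an interferon-stimulated response element core) or TTCNNNGAA (a gamma-activated site core) on either strand, and overlapping matches run together. Each sequence reads 5′ to 3′ on the strand of its gene.
Tnfrsf1b (chr4:145246871-145247120, minus strand): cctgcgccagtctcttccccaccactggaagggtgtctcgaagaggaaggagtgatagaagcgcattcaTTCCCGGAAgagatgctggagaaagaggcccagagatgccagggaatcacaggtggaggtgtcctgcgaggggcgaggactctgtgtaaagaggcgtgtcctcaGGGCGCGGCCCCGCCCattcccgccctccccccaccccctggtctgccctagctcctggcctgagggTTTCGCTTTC
Tnfrsf1a (chr6:125349473-125349722, plus strand): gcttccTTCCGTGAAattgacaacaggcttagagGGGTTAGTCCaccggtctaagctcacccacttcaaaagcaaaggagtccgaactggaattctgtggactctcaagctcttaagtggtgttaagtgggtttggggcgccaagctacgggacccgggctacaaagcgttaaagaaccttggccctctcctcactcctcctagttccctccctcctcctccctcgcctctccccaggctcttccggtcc
Ltbr (chr6:125313886-125314135, minus strand): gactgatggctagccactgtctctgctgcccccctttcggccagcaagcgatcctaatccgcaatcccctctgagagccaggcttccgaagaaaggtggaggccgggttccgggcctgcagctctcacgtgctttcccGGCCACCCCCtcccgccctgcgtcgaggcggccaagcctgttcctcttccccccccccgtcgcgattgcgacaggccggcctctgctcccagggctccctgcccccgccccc
Tnfsf10 (chr3:27316827-27317076, plus strand): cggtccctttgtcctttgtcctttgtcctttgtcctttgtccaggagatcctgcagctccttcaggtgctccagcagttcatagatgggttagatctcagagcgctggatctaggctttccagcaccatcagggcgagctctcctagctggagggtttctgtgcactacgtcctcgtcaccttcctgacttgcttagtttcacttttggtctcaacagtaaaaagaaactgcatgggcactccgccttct

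The Tnfrsf1b window held all 3 kinds of match. Its interferon-type match, TTTCGCTTTC, began 10 bases before the start, its gamma-activated type match, TTCCCGGAA, began 181 bases before it, and its 3 kappa B matches overlapped in 1 GC-rich run. Tnfrsf1a had GGGTTAGTCC and TTCCGTGAA, Ltbr had GGCCACCCCC on the opposite strand, and the Tnfsf10 window held none of these letters. Among all 32851 promoter windows of the same length, 45.8% held the kappa B core, 2.98% the interferon core and 7.02% the gamma-activated core, so the kappa B letters set no window apart. Beside Tnfrsf1b, only Tnfrsf14 among the 8 matched members held the interferon core. These matches describe letters and not bound sites.

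Of the 10 members, 7 passed the filter on low counts and were tested with edgeR's quasi-likelihood test across 7667 genes. None of the 7 had an adjusted p-value under 0.05, against 0.235% of all tested genes (18 genes). Unadjusted, 3 had a p-value under 0.05, all with higher values in transferred hearts (Tnfrsf1b, Tnfrsf1a and Tnfsf10), against 7.17% of all genes in that direction. Without transferred heart 2 only Tnfrsf1b remained of the 3, with unadjusted edgeR p-values of 0.0988 for Tnfrsf1a and 0.267 for Tnfsf10. The groups did not overlap in 2 of the 7, both higher in transferred hearts, against 5.99% of all tested genes in that direction. By DESeq2, 1 of the 7 (Tnfrsf1b) passed the adjusted threshold, against 3.29% of all tested genes, and by limma-voom 0 passed, against 0%. The median log2 fold change of the 7 was 0.27, beside -0.002 over all tested genes. In bulk tissue, more cells of a type and more RNA per cell cannot be told apart, and the labels do not say that the mice came from separate litters or days.

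**Figure D1:**
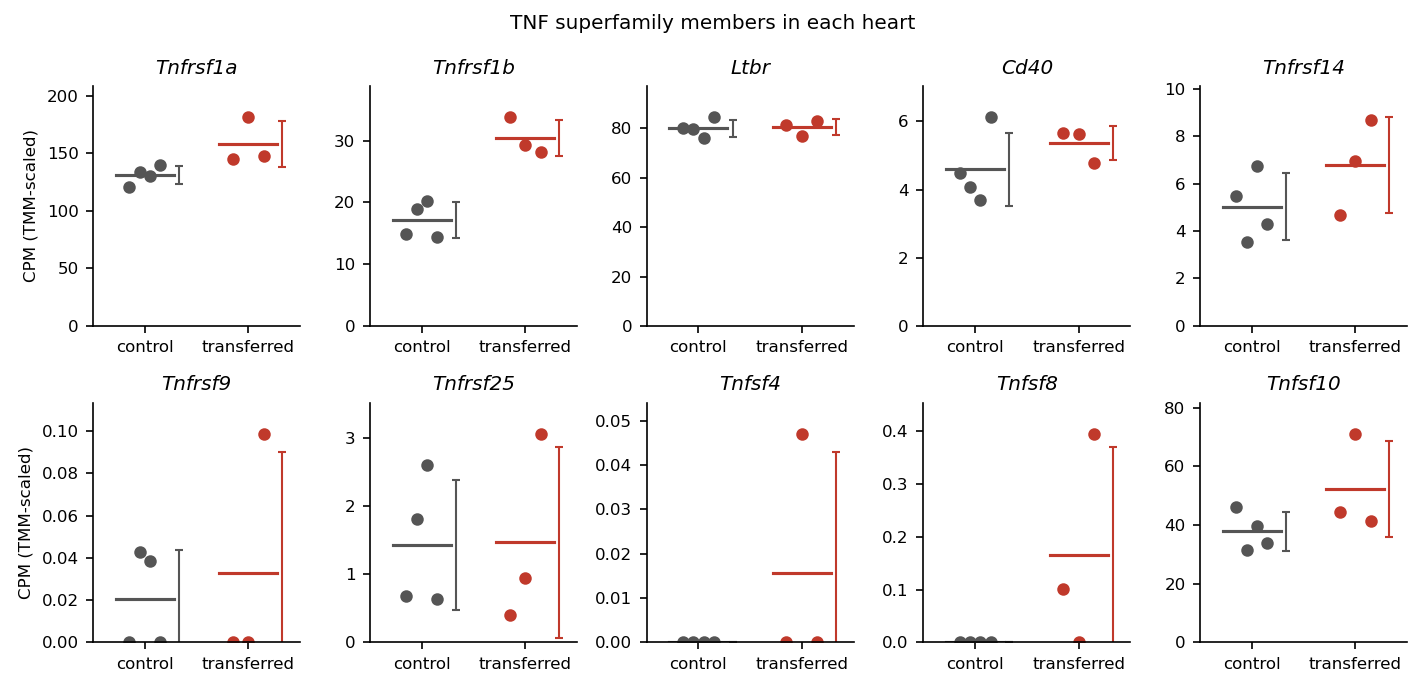
CPM of each of the 10 members in every heart, with 1 point per heart, control hearts in grey and transferred hearts in red. Horizontal lines are group means and bars beside them are 1 SD (n = 4 and n = 3). Tnfrsf1b and Tnfrsf1a separate the groups, and Tnfrsf9, Tnfsf4 and Tnfsf8 lie on axes that end below 0.5 CPM.

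Tnfrsf1b (gene 21938, chromosome 4, positions 145212368 to 145246870, minus strand, GRCm38) had 14.8, 18.9, 20.3 and 14.4 CPM in control hearts 1 to 4. Transferred hearts 1 to 3 had 33.8, 29.3 and 28.2 CPM. The lowest transferred value was thus above the highest control value, and the spread was alike in both groups. The means were 17.1 ± 2.93 CPM (SD, n = 4) and 30.4 ± 2.95 CPM (SD, n = 3). On the log2 scale the fold change was 0.83 ± 0.14 (SE), a 1.77-fold difference with a 95% interval of 1.42 to 2.21 (edgeR adjusted p = 0.0546). Its unadjusted p-value of 0.000195 in edgeR ranked 26 among 7667 genes. The adjusted p-value was 5.41e-05 with DESeq2 and 0.00702 in edgeR when every gene with at least 1 count was kept, and from 0.0415 to 0.167 when 1 heart was left out, under 0.05 only without transferred heart 3.

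Identifiers of 2 animals start with letters (the first control and the first transferred heart), and those of the other 5 are purely numeric. The labels do not call these batches. In the letter pair, Tnfrsf1b was at 14.8 and 33.8 CPM, and in the numeric hearts the group means were 17.9 and 28.7 CPM without overlap. The edgeR adjusted p-value was 0.0795 with the prefix as a covariate and 0.135 within the 5 hearts.

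Macrophage markers were also higher in transferred hearts. The list of 12 markers was chosen with earlier results of these data known, and all 12 had a higher mean in transferred hearts. Of these, 10 did not overlap between the groups, against 5.99% of all tested genes in that direction. The adjusted threshold was passed by 3, against 0.235% of all tested genes. The most abundant of the 12 were the complement genes C1qa and C1qc, which averaged 136 and 109 CPM in control and 259 and 195 CPM in transferred hearts (edgeR adjusted p = 0.0618 for each). The summed level of the 12 was 602, 585, 507 and 738 CPM in control hearts 1 to 4 and 1193, 1342 and 894 CPM in transferred hearts 1 to 3. Within the control hearts the order of these sums was the reverse of that of Tnfrsf1b, while transferred heart 3 was the lowest of its group in both and the highest sum (heart 2) and the highest Tnfrsf1b (heart 1) were in different hearts. Per 100 CPM of that sum, Tnfrsf1b was at 2.46, 3.24, 4.00 and 1.96 CPM in control hearts and at 2.83, 2.18 and 3.15 CPM in transferred hearts, so the groups overlapped on this ratio. Endothelial markers, led by Kdr and Eng, summed to 2077 to 2666 CPM in control hearts and 2254 to 2506 CPM in transferred hearts, which overlapped, but single markers differed in direction. Aplnr, the apelin receptor, fell from 132 to 70.3 CPM on average (edgeR adjusted p = 0.0384). Without overlap and not past the threshold, Tie1 averaged 237 and 196 CPM and Vwf 106 and 239 CPM. The part of the macrophage and endothelial markers in the Tnfrsf1b difference was not tested.

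**Figure D2:**
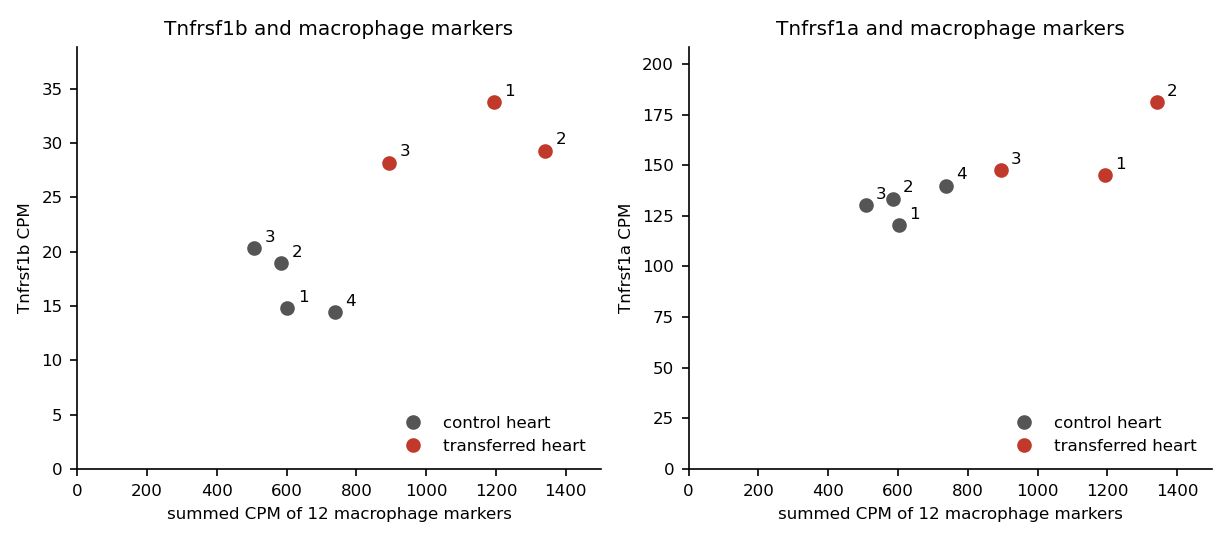
CPM of Tnfrsf1b (left) and Tnfrsf1a (right) on the vertical axes against the summed CPM of 12 macrophage markers on the horizontal axes. Each point is 1 heart, numbered within its group, control in grey and transferred in red. Transferred hearts lie at marker sums of 894 to 1342 CPM and control hearts at 507 to 738 CPM.

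Tnfrsf1a (gene 21937, chromosome 6, 125349723 to 125362483, plus strand) signals through TRADD to NF-kappa B or, when that arm is blocked, to cell death. Control hearts had 120.4, 134, 130.3 and 139.9 CPM and transferred hearts had 145, 181 and 148 CPM. The groups did not overlap, but transferred hearts 1 and 3 were only slightly above the highest control heart. The means were 131 ± 8.13 CPM (SD, n = 4) and 158 ± 20.2 CPM (SD, n = 3). The log2 difference was 0.27 ± 0.10 (SE), and the 95% interval of the fold was 1.04 to 1.40 (edgeR adjusted p = 0.292). Without transferred heart 2, the heart with the highest neutrophil and macrophage marker sums, the log2 fold change was 0.16 (edgeR adjusted p = 0.652). Control and transferred levels were 120.4 and 145 CPM in the letter pair, and 135 and 164 CPM on average in the numeric hearts.

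The balance of the 2 TNF receptors was compared per length, as CPM per kilobase of exon. Tnfrsf1a exceeded Tnfrsf1b by 18.5, 16.1, 14.6 and 22.1-fold in control hearts and by 9.79, 14.1 and 11.9-fold in transferred hearts. Every transferred heart therefore had a lower ratio than every control heart. This ratio was chosen after the values were seen and is given without a test.

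Ltbr (gene 17000, chromosome 6, 125306571 to 125313885, minus strand) binds lymphotoxin alpha-beta trimers and LIGHT and activates the alternative NF-kappa B route. It lies 35837 bases from Tnfrsf1a, with 1 other gene of the table between them. Control hearts had 80.1, 79.8, 76.1 and 84.5 CPM and transferred hearts had 81.4, 76.8 and 83.1 CPM. The values interleaved, and the means were 80.1 ± 3.45 CPM (SD, n = 4) and 80.4 ± 3.24 CPM (SD, n = 3). The groups differed by 0.01 ± 0.07 (SE) on the log2 scale, and the 95% interval allowed a fold from 0.899 to 1.12 (edgeR adjusted p = 0.983). Ltbr had the narrowest interval of the 7 tested members, and it excluded a difference as large as that of Tnfrsf1b. The ratio of Tnfrsf1a to Ltbr, per length, was 1.47 to 1.67 in control hearts and 1.74, 2.31 and 1.74 in transferred hearts.

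Cd40 (gene 21939, chromosome 2, 165055614 to 165071654, plus strand) is the receptor through which CD4+ T cells help B cells and license dendritic cells and macrophages. It was measured at 4.47, 4.09, 3.68 and 6.12 CPM in control hearts and 5.67, 5.64 and 4.79 CPM in transferred hearts. Control heart 4 was the highest of all 7, so the groups overlapped. Its log2 fold change was 0.23 ± 0.21 (SE), with a 95% interval of the fold from 0.847 to 1.63 (edgeR adjusted p = 0.720). With 1 heart left out its log2 fold change was between 0.14 (without control heart 3) and 0.40 (without control heart 4). Markers of dendritic cells summed to 38.0 to 44.5 CPM in control hearts and 40.6 to 50.6 CPM in transferred hearts, of which Zbtb46 alone made up 41.9 and 45.0 CPM on average. Itgax, the integrin CD11c of dendritic cells and some macrophages, was at 0.253 and 0.957 CPM on average without overlap (log2 fold change 1.85, edgeR adjusted p = 0.216). Flt3, the remaining marker of that list in the table, went the other way, at 0.119 and 0.0972 CPM on average, and was under the filter. The part of these markers in the Cd40 values was not tested.

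Tnfrsf14 (gene 230979, chromosome 4, 154918487 to 154928620, minus strand) encodes HVEM, which binds LIGHT and the inhibitory receptor BTLA. Control hearts had 5.49, 3.53, 6.75 and 4.29 CPM and transferred hearts had 4.66, 6.96 and 8.69 CPM. The highest control heart was above the lowest transferred heart. Its log2 fold change was 0.43 ± 0.27 (SE), and the fold interval was 0.882 to 2.05 (edgeR adjusted p = 0.581). Leaving out 1 heart moved it to between 0.21 (without transferred heart 3) and 0.64 (without transferred heart 1). The 2 identifier forms gave opposite signs, with control and transferred values of 5.49 and 4.66 CPM in the letter pair and means of 4.86 and 7.83 CPM in the numeric hearts. That difference between forms was not tested, and the letter pair is 1 heart against 1.

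Tnfrsf25 (gene 85030, chromosome 4, 152115528 to 152120119, plus strand) encodes DR3, a death domain receptor of lymphocytes that binds the ligand TL1A. It was the most variable tested member, with 0.681, 1.81, 2.61 and 0.631 CPM in control hearts and 0.405, 0.940 and 3.06 CPM in transferred hearts. Low and high hearts were found in both groups, from 8 to 68 counts per library. A log2 fold change of 0.01 ± 0.70 (SE) was estimated, so the interval ran from 0.334-fold to 3.02-fold (edgeR adjusted p = 0.997) and a 2-fold difference either way was not excluded. Without transferred heart 3 the log2 fold change was -1.11 (edgeR adjusted p = 0.551).

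Tnfrsf9, the costimulatory receptor known as CD137, had 0, 1, 1 and 0 counts in control hearts and 0, 0 and 2 counts in transferred hearts. These counts are under the 3 counts that a level of 0 allows in each library. The exact two-sided permutation test on CPM gave p = 0.886 (smallest possible 0.0286), and no fold is given.

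The ligands split into 1 well-measured gene and 2 near 0. Tnfsf10 (gene 22035, chromosome 3, 27317077 to 27339665, plus strand) encodes TRAIL, which engages death receptors and is known as an interferon-inducible gene. Control hearts had 46.3, 31.4, 39.8 and 34.0 CPM and transferred hearts had 44.6, 71.1 and 41.4 CPM. Transferred heart 2 alone lay above the control range. The means were 37.9 ± 6.62 CPM (SD, n = 4) and 52.4 ± 16.3 CPM (SD, n = 3), and the log2 fold change was 0.47 ± 0.20 (SE) (edgeR adjusted p = 0.385). Without transferred heart 2 the log2 fold change was 0.18 (edgeR adjusted p = 0.810). In the letter pair the values were 46.3 and 44.6 CPM, and in the other hearts the means were 35.1 and 56.3 CPM.

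Tnfsf8, the CD30 ligand of activated T cells and myeloid cells, had 0 counts in each of the 4 control hearts and 2, 0 and 8 counts in transferred hearts 1 to 3. Transferred heart 3 alone was above 3 counts, at 0.395 CPM. The exact two-sided permutation p was 0.143, and the overlap at 0 leaves the groups unseparated. With counts in transferred hearts 1 and 3 alone, this permutation test could not give a lower value. In the edgeR fit of every gene with at least 1 count, the log2 fold change of Tnfsf8 was 4.84 ± 1.70 (SE). That fit gave an unadjusted edgeR p of 0.0120 and an adjusted p of 0.321. Tnfsf4, the OX40 ligand of antigen-presenting cells, had 1 count in transferred heart 2 and 0 in the other 6 (exact two-sided permutation p = 0.429). With counts in only 1 heart, this p-value is the lowest that the test can give. T cell markers summed to 32.0 to 40.4 CPM in control hearts and 30.4 to 38.6 CPM in transferred hearts, of which Cd28 alone made up 28.6 and 26.1 CPM on average. Cd4, the next most abundant, averaged 2.69 and 3.41 CPM (log2 fold change 0.35, edgeR adjusted p = 0.800). Cd2 had 0, 1, 1 and 0 counts in control hearts and 4, 3 and 5 counts in transferred hearts, without overlap. These counts are at or near the floor of 3 counts, and Cd2 was under the filter. It was the only 1 of the 13 T cell markers without overlap. Cd247 differed by -1.06 on the log2 scale (edgeR adjusted p = 0.278). The T cell receptor beta constant genes Trbc1 and Trbc2 were at 0 counts in all 7 hearts. Whether human reads were counted on Tnfsf8 was not tested.

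**Figure D3:**
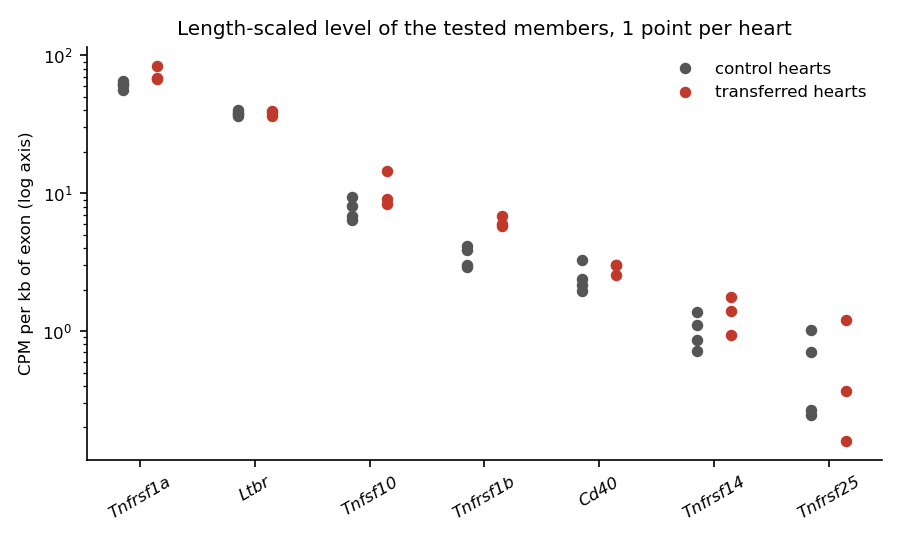
Level of the 7 tested members as CPM per kilobase of exon, on a log axis, with 1 point per heart (control grey, transferred red). Members are ordered by their control mean, from 60.8 for Tnfrsf1a to 0.563 for Tnfrsf25.

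Length-scaled levels put the members in a wide range. In CPM per kilobase of exon, control means were 60.8 ± 3.77 for Tnfrsf1a, 38.0 ± 1.64 for Ltbr and 7.67 ± 1.34 for Tnfsf10 (SD, n = 4). They were 3.49 ± 0.597 for Tnfrsf1b, 2.44 ± 0.568 for Cd40, 1.01 ± 0.286 for Tnfrsf14 and 0.563 ± 0.376 for Tnfrsf25. Among control hearts the ranges of Tnfrsf1b and Cd40 overlapped, as did those of Tnfrsf14 and Tnfrsf25, and the other neighbours in this order did not. The order of the 7 was the same in transferred hearts, where Tnfrsf1b at 6.19 ± 0.601 and Cd40 at 2.86 ± 0.266 (SD, n = 3) no longer overlapped.

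The members lie in groups along the chromosomes that their choice did not use. Tnfrsf9, Tnfrsf25 and Tnfrsf14 follow Tnfrsf1b on distal chromosome 4, and Tnfrsf4 and Tnfrsf18 lie beyond them. Tnfrsf8, which encodes CD30, lies 20261 bases from Tnfrsf1b and had 0 to 3 counts per heart. Tnfsf15, which encodes the DR3 ligand TL1A, lies 86142 bases from Tnfsf8 and had 2 to 8 counts per heart. Tnfsf18 lies 76450 bases from Tnfsf4 and had 2 to 18 counts per heart. No member's span overlapped another gene of the table. All counts of the 10 members were whole numbers.

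A further 13 genes of the superfamily were in the table, of which 7 passed the filter. None passed the adjusted threshold of edgeR, and none had an unadjusted p-value under 0.05 (DESeq2 and limma-voom also called 0). Of the 7, 4 had a positive and 3 a negative log2 fold change, with a median of 0.02. The ligand Tnfsf13b, which encodes the B cell survival factor BAFF, was at 2.15 ± 0.520 CPM (SD, n = 4) and 2.83 ± 0.551 CPM (SD, n = 3), or 0.40 higher on the log2 scale. Tnfsf18 had a log2 fold change of 0.45 ± 0.57 (SE), and Tnfrsf11a, the RANK receptor, of 0.17. The decoy-type TRAIL receptors Tnfrsf22 and Tnfrsf23 had log2 fold changes of 0.02 and -0.26, and their neighbour Tnfrsf26 had -0.23. These 3 lie side by side on chromosome 7, and Tnfrsf22 and Tnfrsf23 had fractional counts in 3 of 7 hearts, so reads may be divided between them. Relt had a log2 fold change of -0.24. Fasl, which encodes Fas ligand, had 0 counts in all 7 hearts, and Cd27, Tnfrsf4, Tnfrsf18, Tnfrsf8 and Tnfsf15 were under the filter.

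**Figure D4:**
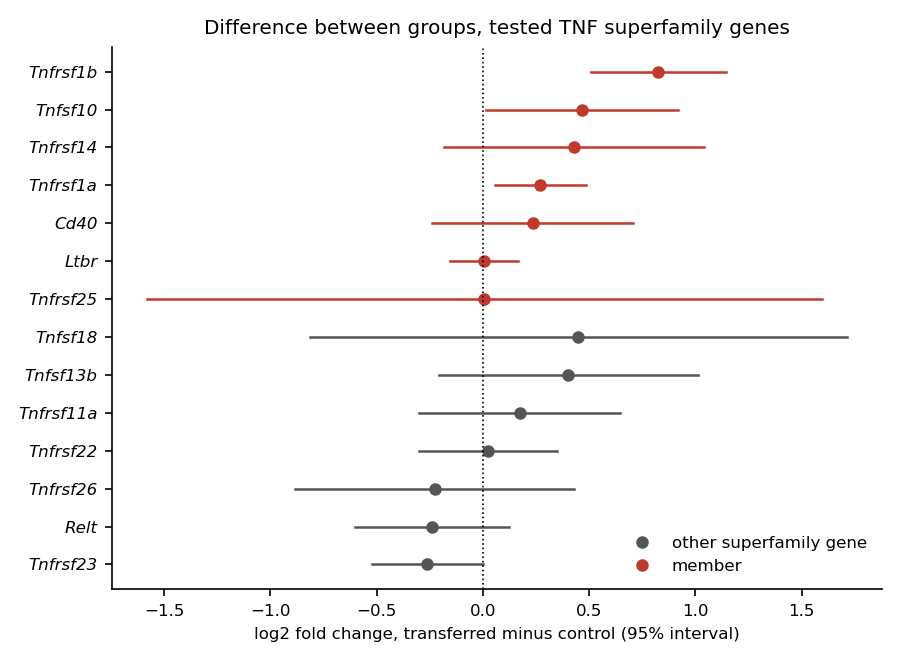
Log2 fold change of transferred over control hearts (horizontal axis) with its 95% interval for the 7 tested members (red) and the 7 other tested superfamily genes (grey). The interval lies above 0 for Tnfrsf1b, Tnfsf10 and Tnfrsf1a before adjustment, and that of Ltbr is the narrowest of the members.

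Downstream of these receptors, 17 genes of the signalling list were in the table and all were tested. None passed the adjusted threshold in edgeR, DESeq2 or limma-voom. Unadjusted edgeR p-values were under 0.05 for 4, all higher in transferred hearts, against 7.17% of all tested genes in that direction. This count was 0 without transferred heart 2, 1 without control heart 2 or control heart 4, 2 without control heart 1, control heart 3 or transferred heart 3, 1 with total count scaling and 2 when every gene with any count was kept. The list's median log2 fold change was 0.06. Relb, the NF-kappa B subunit of the alternative route, was at 31.7 ± 2.97 CPM (SD, n = 4) and 39.6 ± 3.34 CPM (SD, n = 3) without overlap (log2 fold change 0.32, edgeR adjusted p = 0.255). Cflar, the caspase-8 inhibitor, had a log2 fold change of 0.18. Bcl3, an I kappa B-like coactivator, was at 0.59 and Tnip3, which restrains NF-kappa B, at 0.35. Fractional counts were present in 1 heart for Relb and Bcl3 and in 2 hearts for Tnip3. Traf2 and Traf6, adaptors of many members, had log2 fold changes of -0.05 and -0.02, and Nfkb1 had -0.05.

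The list of genes known to respond to TNF or lymphotoxin had 24 genes in the table and 21 tested. None passed the adjusted threshold in edgeR, while 9 had an unadjusted p-value under 0.05, all higher in transferred hearts, against 7.17% of all tested genes in that direction. DESeq2 called 5, against 3.29% of all tested genes. The median log2 fold change was 0.56. The 4 with the smallest p-values were the adhesion genes Vcam1, Sele and Selp and the chemokine gene Cxcl1, with log2 fold changes of 1.02, 2.41, 2.45 and 2.55. Selp was at 3.16, 1.46, 1.65 and 2.59 CPM in control hearts and at 3.19, 25.5 and 7.16 CPM in transferred hearts. Vcam1 was at 24.2 to 30.4 CPM in control hearts and at 45.2, 76.6 and 41.4 CPM in transferred hearts. Sele, like these 2, did not overlap between the groups, with 1.02 to 2.19 CPM in control hearts and 2.68, 18.2 and 5.83 CPM in transferred hearts. Cxcl1 did overlap, with transferred heart 1 at 1.06 CPM inside the control range and transferred hearts 2 and 3 at 11.8 and 5.04 CPM. All 4 were highest in transferred heart 2, where the neutrophil markers also stood highest, at 249 CPM in sum. The part of those markers in the difference was not tested. Ccl21a, a lymphoid chemokine gene under lymphotoxin control in lymph nodes, was at 100.2 ± 20.5 CPM (SD, n = 4) and 132 ± 12.8 CPM (SD, n = 3) (log2 fold change 0.40, edgeR adjusted p = 0.312). Of other chemokine genes on the list, Cxcl13 was at 0 to 0.292 CPM in control hearts. In transferred hearts it was at 0.962, 39.5 and 1.68 CPM without overlap (log2 fold change 6.85, edgeR adjusted p = 0.217). Ccl19 and Cxcl9 overlapped, with log2 fold changes of 0.29 and -0.17.

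**Figure D5:**
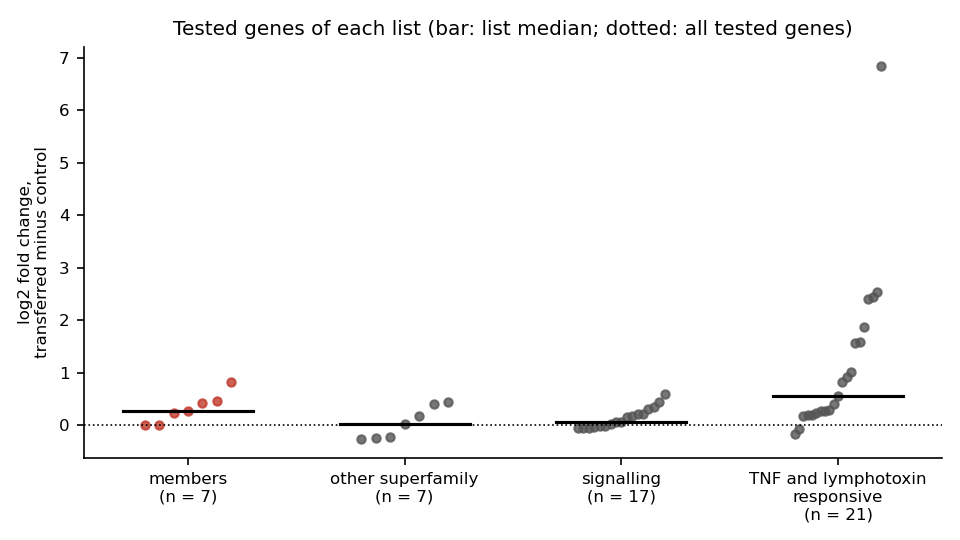
Log2 fold change (vertical axis) of every tested gene in 4 lists, with 1 point per gene. Bars are list medians (0.27 for the members, 0.02, 0.06 and 0.56 for the others) and the dotted line is the median of all tested genes.

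Likeness to the 2 members with the smallest p-values was measured as Pearson's r of log2 CPM over the 7 hearts. The points share the group difference, and with 7 hearts many genes reach high values. For Tnfrsf1b, 43 of the 7667 tested genes had r above 0.9, led by Rps21 (0.970), Dclk1 (0.964) and Gm7846 (0.962). For Tnfrsf1a there were 88, led by Nek6 (0.982), Il1b (0.981) and Elovl1 (0.971). Il1b, the interleukin-1 beta gene, averaged 1.54 ± 0.653 CPM in control (SD, n = 4) and 5.58 ± 4.85 CPM in transferred hearts (SD, n = 3), with its highest value, 11.1 CPM, in transferred heart 2.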

How the data were processed

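The authors deposited a table of estimated counts per gene, not normalized, for 7 hearts. Per the submitters' processing notes, the build was GRCm38.p6 and the tools named were bcl2fastq 2.20.0.422, cutadapt 2.5, STAR 2.7.2b, featureCounts 1.6.4 and DESeq2 1.22.2. Their settings are not given in the sources used here. Of the values, 4.63% had a fractional part, and counts were rounded before testing. Of the table, 20343 complete rows were used, and 1 unfinished last row was dropped. Column totals are therefore sums over part of the genome and not library depth. CPM floors cover counting error only.

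Groups came from the treatment label. Replicate numbers follow accession order and were not used to pair samples. Genes were filtered with filterByExpr and scaled with TMM, then tested with the quasi-likelihood test of edgeR 4.0.16 (robust, R 4.3.3) with Benjamini-Hochberg adjustment over all tested genes. Standard errors and 95% intervals came from its F statistic. Members under the filter were tested with an exact permutation test of the size of the difference in mean CPM over 35 splits. Alternatives were other scalings, no filter, unrounded counts, the identifier prefix, left-out hearts, DESeq2 1.42.0 and limma-voom (limma 3.58.1).

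The members, gene lists, tests and naming rule were chosen with earlier results of these data known. Beyond the members, the rule named every further superfamily gene in the table, 4 genes of lowest p-value from the signalling and the responsive list, the 2 highest genes of each marker list (named only where the list's sum is given), and the 3 genes most like each of 2 members. Traf2, Traf6, Nfkb1, Ccl21a, Cxcl13, Ccl19, Cxcl9, Flt3, Aplnr, Tie1, Vwf, Cd2, Cd247, Trbc1, Trbc2 and the genes of the additional observations were named outside it, after their values were seen.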

Additional observations from a re-analysis of the deposited data

How the results depend on the processing

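Against 18 genes past the threshold over the whole table, total count scaling gave 35 (26 higher, 9 lower), a fit of every gene with any count gave 81 (66 higher, 15 lower) and DESeq2 252 (192 higher, 60 lower). No gene (0) passed with the prefix as a covariate, within the numeric hearts or by limma-voom, where 973, 1054 and 907 had unadjusted p-values under 0.05. Leaving out 1 heart gave 0 to 140. Against 0 members, that fit without a filter gave 1 and DESeq2 gave 1, both times Tnfrsf1b, and leaving out 1 heart gave 0 to 1, the call arising without transferred heart 3. The log2 fold change of Tnfrsf1b was 0.82 and 0.83 in those 2 fits and 0.74 to 0.92 with 1 heart left out. Its sign was positive in 15 of 15 alternatives, and 3 of them passed the threshold (adjusted p from 5.41e-05 to 0.167). Against 0 TNF and lymphotoxin responsive genes, DESeq2 gave 5 and leaving out 1 heart 0 to 2. The lists of other superfamily genes and of signalling genes stayed at 0 in all 15 alternatives. In several of these no gene of the whole table passed, so the count of 0 there says nothing about the lists. Tnfrsf1a, Cd40, Tnfrsf14 and Tnfsf10 kept a positive sign in 15 of 15, with no call. Values near 0 changed sign. The log2 fold change of Ltbr ranged from -0.017 to 0.039 with 1 heart left out. Tnfrsf25 was -0.26 with limma-voom and ranged from -1.11 to 0.47 with 1 heart left out. The CPM difference of Tnfrsf9 ranged from -0.0203 to 0.0290. For these changes the cause was not tested. No paired analysis was possible because the titles of the 2 groups share only 1 heart number. Those 2 hearts are also the letter pair, and the labels do not say whether they share a batch.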

Other observations

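Outside the superfamily, the table held 2 genes named as TNF alpha induced proteins, chosen here by symbol after their values were seen. Tnfaip8l2, which restrains innate immune signalling in myeloid cells, averaged 4.22 ± 0.641 CPM in control (SD, n = 4) and 7.68 ± 1.82 CPM in transferred hearts (SD, n = 3) without overlap, with a log2 difference of 0.87 ± 0.21 (SE) (edgeR adjusted p = 0.127). Tnfaip6, a hyaluronan-binding protein of inflamed matrix, was at 1.96 ± 1.08 CPM (SD, n = 4) and 3.47 ± 1.04 CPM (SD, n = 3), where the groups overlapped (edgeR adjusted p = 0.493).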
